A study of Homo sapiens with 30 samples.

Results

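A set of 47 genes of DNA replication and S phase was followed across 6 groups of U2OS cells, a human osteosarcoma line. The genes were taken by symbol from a given list, by a rule that uses no measured value. That list and the other gene lists were, however, chosen with earlier results of these data known. Comparisons of their counts with the shares of all genes are therefore descriptive. All 47 matched 1 row each of the count table of 57373 genes, and all 47 were among the 18485 genes that passed the filter on low counts. They comprise 6 subunits of the MCM2-7 helicase, 4 genes of origin licensing, 7 genes of helicase activation and origin firing, 9 of the DNA polymerases and primase, 6 of the sliding clamp and its loader, 2 of Okazaki fragment processing, 3 of the single-strand binding protein RPA, 5 of deoxynucleotide supply, 2 of the fork checkpoint and 3 of chromatin assembly and maintenance. The mock group holds mock-transfected cells, and the labels do not say whether they received an empty plasmid. The CHIR group received CHIR99021, an inhibitor of the kinase GSK3 that activates Wnt/β-catenin signalling, and the labels do not say whether it was mock-transfected too. The WT FOXP2 group received a plasmid for the wild-type forkhead transcription factor FOXP2, and the dhelix FOXP2 group one for a form that lacks residues 264 to 272. The WT FOXP2 + CHIR and dhelix FOXP2 + CHIR groups received both agents. The genotype label of WT FOXP2 + CHIR replicate 1 does not carry the letters WT. CHIR99021 was given at 5 µM from 72 hours before transfection, and 500 ng of plasmid was transfected for 48 hours. Which promoter drives the plasmids was not stated in the labels. Each group had 5 libraries that the labels call biological replicates, 30 in all.

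Replication begins when the origin recognition complex (ORC), CDC6 and CDT1 load the MCM2-7 ring onto DNA in G1. CDC45 and the GINS complex then join the ring to form the active helicase. The polymerase α-primase complex lays down primers, the clamp loader RFC places the PCNA ring at them, and polymerases ε and δ extend them. Many of these genes are textbook targets of the E2F factors and peak in expression at the entry to S phase, so their RNA is commonly read as a marker of proliferation.

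Library totals ran from 15755842 to 29466652 counts, with a biological coefficient of variation of 5.62% shared by the genes. Levels are in CPM, counts scaled to a common library depth. Fold changes are on the log2 scale with their standard error after ±, and levels carry their SD, over 5 libraries per group. The words "rose" and "fell" are kept for an adjusted p below 0.05 in edgeR's quasi-likelihood test, by the Benjamini-Hochberg method across all genes tested. FOXP2 RNA was at 0.898 ± 0.284 CPM in mock and 0.504 ± 0.462 CPM with CHIR, against 7076 ± 779 CPM with WT FOXP2, 5319 ± 640 CPM with dhelix FOXP2, 15299 ± 983 CPM with WT FOXP2 + CHIR and 13481 ± 917 CPM with dhelix FOXP2 + CHIR. The groups with a plasmid therefore differ in the amount of FOXP2 RNA as well as in its form. AXIN2, a feedback target of Wnt signalling, was at 21.0 ± 1.01 CPM in mock and 145 ± 15.7 CPM with CHIR. Of 10 mesenchymal and osteoblast markers 5 reached 1 CPM in mock, with IBSP and TWIST1 at 0, and of 8 epithelial markers 5 did. The epithelial markers summed to 403 to 446 CPM in mock, 341 to 426 with CHIR, 643 to 698 in both plasmid groups without CHIR and 550.3 to 628 in both with CHIR. The summed level of the 10 mesenchymal and osteoblast markers was 5243 to 5441 CPM in mock, 2833 to 3513 with CHIR, 3611 to 3772 with WT FOXP2, 2037 to 2184 with WT FOXP2 + CHIR, 3403 to 3486 with dhelix FOXP2 and 2157 to 2341 with dhelix FOXP2 + CHIR. The part of these shifts in the results was not tested. Blood markers summed to at most 0.715 CPM in mock and 19.9 CPM in any group. CHIR replicate 1 stood apart from its group, with a mean chi-square per gene of 28.7 against 7.43 to 10.9 in the other CHIR libraries, and its replication genes had a median log2 level 0.14 above theirs. The mean chi-square was 10.99 in dhelix FOXP2 replicate 5 and 6.005 in WT FOXP2 + CHIR replicate 4, the highest of their groups. In the mock libraries it was 1.67 to 2.37, and the closest pair of any group was at 1.39, little spread beyond that of counting. The p-values measure the spread among these libraries, and how far that covers separate experiments was not tested. Without CHIR replicate 1 the call changed in 17 of 235 results, 47 genes in the 5 comparisons that use the CHIR group, and these 17 are given beside their genes or comparisons.

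Sequence around the transcription starts is shown because the E2F element is what this class of genes is known for. RefSeq (GRCh38.p14) windows from 250 bases before to 50 bases after the start were found for 41 of the 47 genes, in 56 windows. They were searched on both strands for 5 kinds of element. The E2F element was taken as TTTCGCGC or TTTGGCGC, in exact letters. Other forms of it were not searched, so the lack of a match is the lack of these letters only. The CHR element of mitotic genes was taken as TTTGAA. The CCAAT box was searched by the letters of its name. The element of the Wnt-responsive TCF/LEF factors was taken as CTTTGAT. The forkhead element was taken as TGTTTAC. An E2F match was present for 13 of the 41 genes, 31.7%, against 1.40% of all 27305 genes with a window. The 13 were CDC6, DUT, GINS1, MCM2, MCM3, MCM6, MCM7, POLA1, POLA2, POLE, POLE2, TIPIN and UHRF1. A CHR match was present for 4.88% of the replication genes, 18.2% of all genes and 72.0% of 25 mitotic genes with a window. CCAAT was present for 61.0% of the replication genes against 39.7% of all genes. TCF/LEF letters were in the windows of 0 of the 41 genes against 3.18% of all genes, and forkhead letters in those of 1, MCM7, 2.44% against 4.19%. The E2F letters are in capitals in the lines that follow, read 5′ to 3′ on the gene's strand for the 8 genes whose match lies before the start. The MCM6 stretch has 2 places where matches on both strands overlap, TIPIN has 1, and the stretches of DUT, TIPIN and UHRF1 belong to 1 of several RefSeq starts.
MCM6, chr2:135876502-135876615, minus strand: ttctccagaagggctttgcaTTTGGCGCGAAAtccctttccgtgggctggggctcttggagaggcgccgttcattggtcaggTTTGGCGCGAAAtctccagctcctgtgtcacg
MCM7, chr7:100101398-100101426, minus strand: cggtcacgtggggggcgacgTTTCGCGCc
POLA2, chr11:65261889-65261936, plus strand: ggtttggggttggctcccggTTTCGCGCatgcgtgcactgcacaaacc
POLA1, chrX:24693761-24693808, plus strand: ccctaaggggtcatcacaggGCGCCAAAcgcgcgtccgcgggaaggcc
UHRF1, chr19:4909964-4910011, plus strand: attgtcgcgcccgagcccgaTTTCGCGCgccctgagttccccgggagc
DUT, chr15:48332150-48332196, plus strand: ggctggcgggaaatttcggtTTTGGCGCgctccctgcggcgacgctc
POLE, chr12:132687343-132687380, minus strand: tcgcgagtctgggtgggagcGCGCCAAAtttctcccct
TIPIN, chr15:66356720-66356771, minus strand: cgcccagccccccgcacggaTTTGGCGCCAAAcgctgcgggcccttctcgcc
RRM2, the gene that fell most with CHIR, had no E2F match in its windows and 3 CCAAT matches, in capitals here, in the 250 bases before a start.
RRM2, chr2:10122489-10122738, plus strand: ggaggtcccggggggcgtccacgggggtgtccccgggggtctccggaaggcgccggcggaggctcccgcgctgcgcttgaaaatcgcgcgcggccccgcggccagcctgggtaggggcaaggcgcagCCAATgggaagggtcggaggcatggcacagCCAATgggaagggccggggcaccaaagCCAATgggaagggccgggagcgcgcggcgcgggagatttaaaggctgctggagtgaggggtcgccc

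Levels per length could be compared for 46 of the 47 genes, with exon lengths of another annotation build. In mock cells TYMS, which makes thymidylate, had the highest level, 385 CPM per kb, followed by the thymidine kinase TK1 at 193 CPM per kb, PCNA at 146, MCM3 at 108 and the ribonucleotide reductase subunit RRM2 at 106. GINS3 at 12.6 CPM per kb and CHAF1B, a subunit of the histone chaperone CAF-1, at 6.94 were the lowest. For TYMS 64.6% of the exon bases overlap genes on the other strand, for MCM2 32.0%, for GINS4 23.6%, for DUT 17.2% and for GINS3 16.5%. With the strand setting of the counting not known, the levels of these 5 genes are uncertain.

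The 47 genes together took 0.723% ± 0.002 of all counts in mock, the largest share of the 6 groups. The share was 0.611% ± 0.004 with dhelix FOXP2, 0.587% ± 0.012 with WT FOXP2, 0.557% ± 0.006 with CHIR, 0.534% ± 0.006 with dhelix FOXP2 + CHIR and 0.492% ± 0.004 with WT FOXP2 + CHIR. These shares are of raw totals, without the scaling factors used for CPM. Those factors were 1.06 to 1.07 in mock and 0.949 to 0.959 with WT FOXP2, so differences in share are not on the scale of the CPM. The mean level was highest in mock for 21 of the 47 genes and lowest in WT FOXP2 + CHIR for 24. Between-group differences made up a median of 93.7% of the variance of the 47 genes, against 89.9% over all genes tested, from 19.99% for CDT1 to 99.0% for RRM2. In bulk RNA, which averages over all cells of a culture, a smaller share of cells in S phase and less RNA per such cell cannot be told apart.

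**Figure D1:**
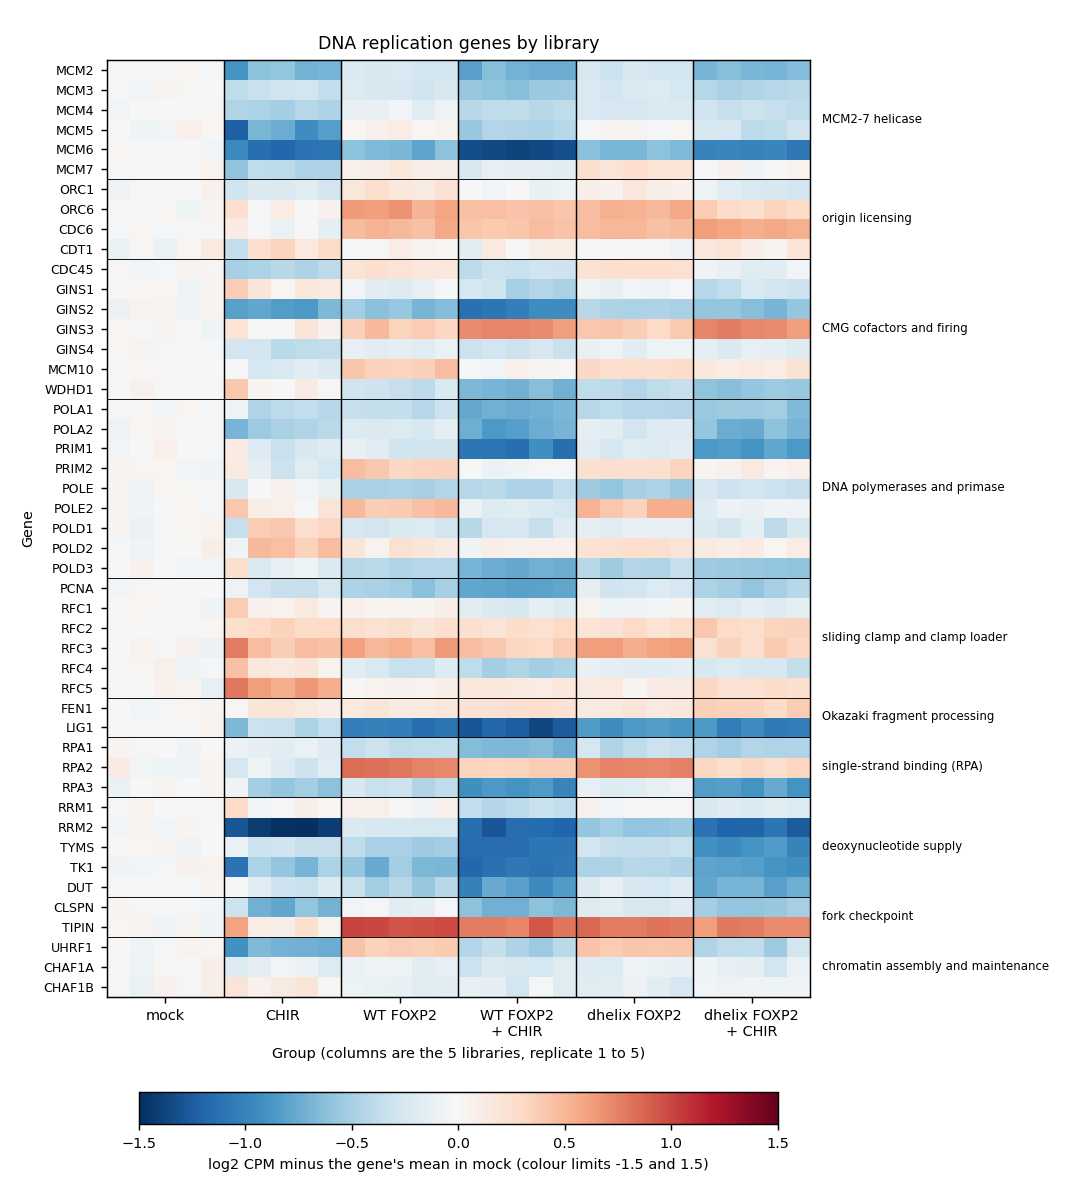
Level of each of the 47 genes (rows, ordered by role) in each of the 30 libraries (columns), as log2 CPM minus the gene's mean in mock, blue below and red above mock. RRM2 and MCM6 are among the darkest blue rows in the CHIR libraries, and TIPIN and RPA2 are red in the libraries with a FOXP2 plasmid.

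With CHIR alone all 6 helicase genes and 4 of 5 deoxynucleotide genes fell against mock, and all 5 clamp loader genes rose, 4 of them also without CHIR replicate 1. Of the 47 genes 27 fell and 13 rose, with a median log2 fold change of -0.16 against 0.02 over all genes. Over all genes tested 35.3% fell and 38.8% rose, so more of the 47 fell, and fewer rose, than their number at the background shares. RRM2 carried the largest change: it was at 397, 418, 396, 419 and 408 CPM in the 5 mock libraries and at 168, 151, 146, 139 and 153 CPM with CHIR. Each CHIR library lay far below each mock library, a log2 fold change of -1.43 ± 0.04 (edgeR adjusted p = 2.7e-28). RRM2 and MCM6 were the 2 genes that fell by more than 2-fold.

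All 6 subunits of the MCM2-7 ring fell with CHIR (all genes: 35.3% fell). MCM6 was at 190.5, 188, 187, 187 and 182 CPM in mock and 96.2, 85.1, 82.6, 86.9 and 87.6 CPM with CHIR (-1.09 ± 0.04, edgeR adjusted p = 2.1e-25). MCM2 was at 235, 233, 236, 239 and 233 CPM in mock and 127, 154, 156, 144 and 145 CPM with CHIR (-0.70 ± 0.04), again with no overlap of the libraries. MCM5 changed by -0.87 ± 0.06, MCM4 by -0.47 ± 0.03, MCM7 by -0.46 ± 0.03 and MCM3 by -0.33 ± 0.03. The ring's partners moved with it in part. GINS2 was at 67.5, 73.8, 73.8, 69.1 and 73.3 CPM in mock and 40.6, 41.7, 40.1, 39.2 and 44.8 CPM with CHIR (-0.79 ± 0.04), and CDC45 at 93.4, 89.3, 90.004, 94.7 and 93.7 CPM and 65.4, 66.1, 68.9, 66.9 and 69.99 CPM (-0.45 ± 0.03). Neither overlapped between the groups. GINS4 and MCM10 also fell, GINS1 (0.18 ± 0.05) and WDHD1, an adaptor of polymerase α at the fork (0.13 ± 0.05), rose, and GINS3 did not pass (0.09 ± 0.05).

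The licensing genes upstream of the ring differed from it. ORC1 was at 47.3, 48.4, 49.2, 48.8 and 50.99 CPM in mock and 39.8, 42.2, 41.97, 43.1 and 40.1 CPM with CHIR and fell (-0.24 ± 0.04), with no overlap. CDC6, the ATPase that loads MCM2-7, was at 115, 120.3, 116, 119 and 116 CPM in mock and 128, 116, 109.7, 118 and 107 CPM with CHIR. The ranges overlapped and CDC6 did not pass (-0.02 ± 0.04), nor did ORC6 (0.09 ± 0.04). CDT1 was at 58.01, 63.2, 58.2, 63.8 and 69.04 CPM in mock and 48.6, 74.3, 78.3, 69.05 and 75.2 CPM with CHIR, where replicate 1 was the lowest and the other 4 lay close to or above the highest mock library. It did not pass (0.15 ± 0.08, edgeR adjusted p = 0.081), but without CHIR replicate 1 it was 0.22 higher (adjusted p = 6.4e-05), and CDC6 was then called lower, at -0.10 (adjusted p = 0.0044).

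All 5 RFC genes rose with CHIR (all genes: 38.8% rose), while PCNA, the ring they load, fell. RFC5 was at 63.6, 62.97, 66.2, 65.1 and 57.9 CPM in mock and 109.6, 97.3, 92.2, 99.2 and 92.1 CPM with CHIR (0.63 ± 0.04, edgeR adjusted p = 1.4e-16). Every CHIR library was above every mock library. RFC3 changed by 0.51 ± 0.06, RFC2 by 0.30 ± 0.03, RFC4 by 0.20 ± 0.05 and RFC1 by 0.14 ± 0.04. PCNA was at 209.6, 218, 216, 216 and 216 CPM in mock and 204, 176, 169, 169.6 and 179 CPM with CHIR (-0.26 ± 0.04), all below mock. In CHIR replicate 1 RFC1, RFC3, RFC4, RFC5 and PCNA were higher than in the other 4 CHIR libraries. Without it RFC5, RFC3, RFC2 and RFC4 kept their calls and RFC1 lost it (0.04, adjusted p = 0.25). RFC4 was then at 0.10. With upper-quartile scaling RFC1 (0.05) and RFC4 (0.11) did not pass.

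Of the 9 polymerase and primase genes 4 were lower and 3 higher with CHIR (all genes: 35.3% fell, 38.8% rose). Without CHIR replicate 1 it was 5 lower and 2 higher. POLA1, the catalytic subunit of polymerase α, was at 71.7, 71.7, 68.7, 72.2 and 70.3 CPM in mock and 67.7, 51.8, 54.1, 55.02 and 52.9 CPM with CHIR (-0.33 ± 0.05), and POLA2 changed by -0.52 ± 0.05. All CHIR libraries were lower, CHIR replicate 1 least so for POLA1. PRIM1 (-0.16 ± 0.06) and PRIM2 (-0.14 ± 0.05), which make the RNA primers, fell as well, by more without CHIR replicate 1 (-0.28 and -0.27). POLD3, an accessory subunit of polymerase δ, did not pass (-0.07 ± 0.05) and was called lower without CHIR replicate 1 (-0.19, adjusted p = 9.6e-06). The polymerase δ subunits POLD2 (0.35 ± 0.06) and POLD1 (0.22 ± 0.08) rose, the latter with a call lost without mock replicate 2 (0.17), CHIR replicate 3 (0.14) or CHIR replicate 5 (0.17). In CHIR replicate 1 both were below all mock libraries, and in the other 4 CHIR libraries above them.

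Deoxynucleotide supply genes fell with CHIR in 4 of 5 cases (all genes: 35.3% fell). TYMS was at 641, 652, 656, 616 and 635 CPM in mock and 595, 511, 521, 502 and 504 CPM with CHIR (-0.28 ± 0.04). TK1 (-0.65 ± 0.07) and DUT, the dUTPase (-0.20 ± 0.05), fell with it, and RRM1, the large subunit of ribonucleotide reductase, did not pass (0.07 ± 0.04). The 2 subunits of the same enzyme thus differed, RRM2 being 2.69-fold lower with CHIR. All 3 RPA genes fell, with log2 fold changes from -0.44 ± 0.06 for RPA3 to -0.14 ± 0.03 for RPA1 (-0.23 with upper-quartile scaling). LIG1, which seals Okazaki fragments, was at 174, 169, 169, 172 and 179 CPM in mock and 108, 138, 137, 124 and 134 CPM with CHIR (-0.43 ± 0.05), with no overlap, and the flap nuclease FEN1 rose (0.13 ± 0.03). With upper-quartile scaling FEN1 was at 0.03 and did not pass (adjusted p = 0.38). CLSPN, the adaptor of the ATR-CHK1 checkpoint, was at 104, 102, 101, 99.03 and 98.2 CPM in mock and 80.7, 61.1, 58.4, 66.6 and 61.8 CPM with CHIR (-0.62 ± 0.05). Its partner at the fork, TIPIN, was at 26.5, 26.6, 24.9, 26.6 and 24.8 CPM and 39.3, 27.9, 27.4, 30.6 and 26.8 CPM, with CHIR replicate 1 far above the rest. TIPIN rose (0.24 ± 0.07), a call that was lost without CHIR replicate 1 (0.09, adjusted p = 0.11). UHRF1, which keeps DNA methylation in place behind the fork, was at 83.6, 80.3, 82.4, 86.6 and 85.5 CPM in mock and 44.5, 52.9, 51.1, 50.6 and 50.1 CPM with CHIR (-0.75 ± 0.04), all below mock.

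The 13 genes that rose with CHIR were the less certain group. Without CHIR replicate 1, 8 rose and 29 fell, and GINS1, POLE2, RFC1, TIPIN, WDHD1 and CHAF1B were no longer called (0.01 to 0.09). In the 10 fits that each left out 1 library, WDHD1 lost its call in 5 and CHAF1B in 7. Upper-quartile scaling gave 4 up and 30 down, and CHAF1B, FEN1, GINS1, POLD1, POLE2, RFC1, RFC4, TIPIN and WDHD1 did not pass there (0.02 to 0.14).

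**Figure D2:**
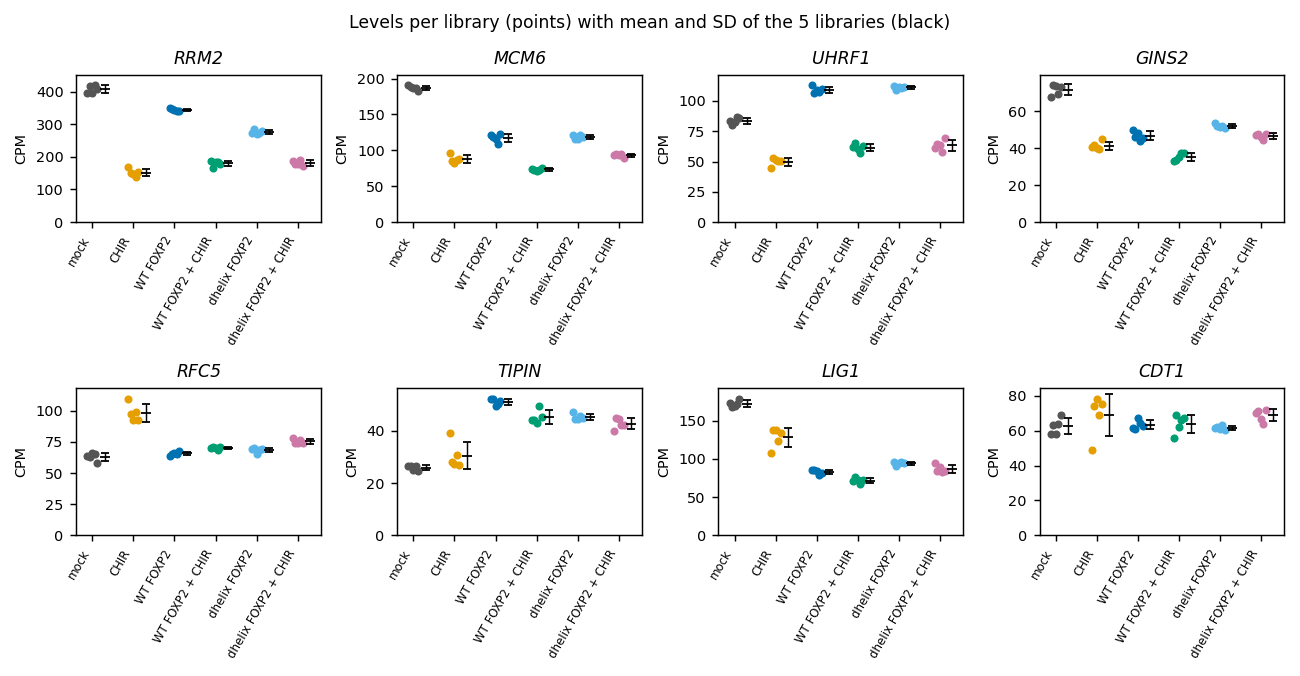
CPM in each library (points) for 8 genes in the 6 groups, with the mean and SD of the 5 libraries in black, all vertical axes from 0. RRM2, MCM6 and UHRF1 are lower in each CHIR group than in its untreated counterpart, RFC5 is highest with CHIR alone, TIPIN and LIG1 separate the plasmid groups from mock, and CDT1 spans 48.6 to 78.3 CPM, with both extremes in the CHIR group.

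In cells with a FOXP2 plasmid most of the 47 genes fell with CHIR. FOXP2 RNA was also higher in these cells with CHIR than without. An effect of CHIR there and one of more FOXP2 RNA cannot be told apart. With WT FOXP2, 37 fell and 2 rose (all genes: 30.2% fell, 34.8% rose), and the median was -0.31. With dhelix FOXP2, 34 fell and 7 rose (all genes: 29.1% fell, 34.1% rose), and the median was -0.20. RRM2 was at 349, 346, 344, 340.1 and 340.4 CPM with WT FOXP2 and 186, 167, 184, 183 and 179 CPM with CHIR added (-0.94 ± 0.04). It was at 273, 285, 271, 272 and 278 CPM with dhelix FOXP2 and 188, 179, 176, 191 and 171 CPM with CHIR added (-0.61 ± 0.04). The 3 groups with CHIR thus ended between 139 and 191 CPM from different starting levels. UHRF1 was at 113, 107, 109, 107 and 110.2 CPM with WT FOXP2 and 61.7, 65.04, 60.6, 57.2 and 63.2 CPM with CHIR added (-0.83 ± 0.04). With dhelix FOXP2 it was at 112, 109, 112, 111 and 112 CPM and 61.05, 64.4, 63.98, 57.8 and 69.4 CPM (-0.81 ± 0.04). UHRF1 was the gene of the 47 that fell most in the dhelix cells, with no overlap in either pair.

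PRIM1, the catalytic primase subunit, fell more with CHIR in plasmid cells than alone, with an interaction of -0.67 ± 0.08 for WT FOXP2 (edgeR adjusted p = 3.3e-09) and -0.49 ± 0.08 for dhelix FOXP2 (edgeR adjusted p = 1.6e-06). It was at 72.1, 74.6, 78.6, 74.01 and 73.2 CPM in mock and 80.9, 64.4, 58.9, 63.1 and 65.3 CPM with CHIR. With WT FOXP2 it was at 69.04, 66.04, 60.4, 60.6 and 60.4 CPM and, with CHIR added, at 35.1, 34.7, 34.002, 39.4 and 33.9 CPM (-0.84 ± 0.06). With dhelix FOXP2 the values were 66.5, 62.3, 65.4, 64.4 and 66.7 CPM and 40.97, 41.6, 39.8, 43.4 and 40.9 CPM (-0.65 ± 0.06). CHIR replicate 1 lay above all mock libraries and the other 4 below them, and the libraries of both plasmid pairs were separate. TYMS was at 493, 455, 457, 443 and 450.0 CPM with WT FOXP2 and 291, 289, 289.5, 302 and 302 CPM with CHIR added (-0.64 ± 0.04), and at 527, 503, 499.5, 498 and 507 CPM and 339.9, 329.6, 345, 354 and 319 CPM with dhelix FOXP2 (-0.59 ± 0.04). GINS3 went the other way. It was at 38.8, 42.3, 38.02, 39.2 and 37.3 CPM with WT FOXP2 and 49.3, 50.4, 50.1, 49.4 and 46.6 CPM with CHIR added (0.33 ± 0.04), and at 40.03, 40.2, 39.1, 37.3 and 39.7 CPM and 50.3, 51.6, 49.9, 49.6 and 46.5 CPM with dhelix FOXP2 (0.34 ± 0.04), separate in both pairs.

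The 3 CHIR effects rest on separate libraries. The genes that fell in all 3 numbered 25 of 47, where 13.1% of all genes did. They were the 6 MCM2-7 subunits, ORC1, CDC45, GINS2, MCM10, POLA1, POLA2, PRIM1, PRIM2, PCNA, LIG1, RPA1, RPA2, RPA3, RRM2, TYMS, TK1, DUT, CLSPN and UHRF1. FEN1 was the 1 gene that rose in all 3 (0.13 ± 0.03, 0.08 ± 0.03 and 0.20 ± 0.03), where 15.3% of all genes did. That count rests on the scaling and the filter, since FEN1 did not pass with CHIR alone under upper-quartile scaling, nor in either kind of plasmid cell without the filter on low counts (0.05 and 0.11). The FEN1 call with WT FOXP2 was lost without WT FOXP2 replicate 1, 3 or 5 or WT FOXP2 + CHIR replicate 2 (0.06 to 0.07, adjusted p up to 0.10). LIG1 in dhelix cells (-0.12 ± 0.05) was not called without dhelix FOXP2 replicate 1 (-0.11) or dhelix FOXP2 + CHIR replicate 4 or 5 (-0.10 each). Nor was it called there with upper-quartile scaling (-0.09, edgeR adjusted p = 0.089). In dhelix cells 3 to 7 genes rose when 1 library was left out, 3 without dhelix FOXP2 replicate 3 or 4 and 4 without dhelix FOXP2 replicate 2 or 5 or dhelix FOXP2 + CHIR replicate 2.

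**Figure D3:**
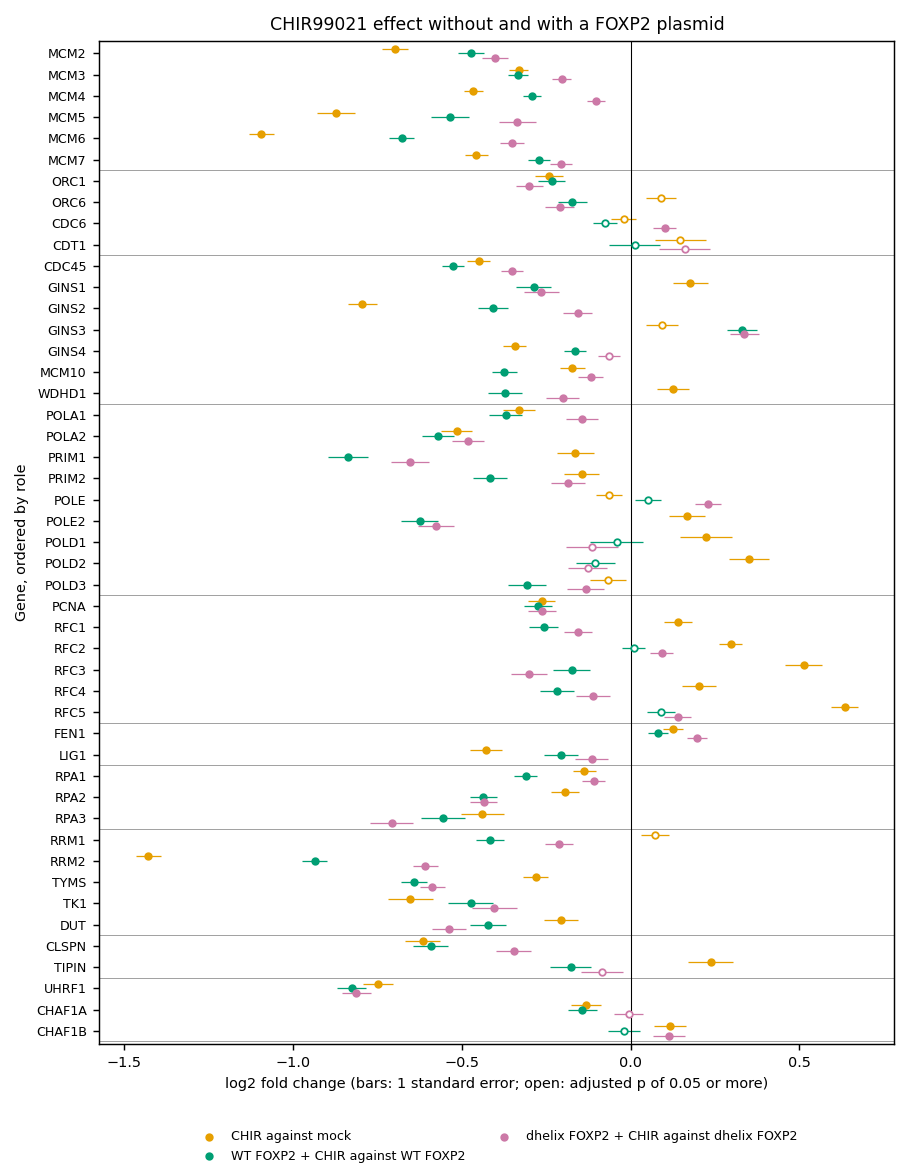
Log2 fold change with CHIR for each of the 47 genes, without a plasmid and with either FOXP2 plasmid; bars are 1 standard error and open points did not pass. The MCM2-7 genes lie left of 0 in all 3 comparisons, and RFC3 lies right of 0 with CHIR alone and left of it with either plasmid.

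Mitotic genes, measured alongside, were lower in the same CHIR libraries. Of 30 mitotic genes 28 fell with CHIR alone and 1, CDK1, rose (0.14 ± 0.06; all genes: 35.3% fell, 38.8% rose). DESeq2, RLE scaling and upper-quartile scaling each gave 29 lower and 0 higher. The CDK1 rise was also lost with a filter at a mean of 1 CPM, with FOXP2 left out, without the 3 libraries that stand apart and in a fit of the mock and CHIR groups alone. In that list 30 fell and 0 rose with CHIR in either kind of plasmid cell, and at an unadjusted p under 0.05, and by DESeq2, 0 rose as well. Over all genes 30.2% fell and 34.8% rose in WT FOXP2 cells, and 29.1% fell and 34.1% rose in dhelix FOXP2 cells. Relative to mock, the median of the 30 was -0.43 to -0.28 in the CHIR libraries, -0.81 to -0.70 with WT FOXP2 + CHIR and -0.80 to -0.69 with dhelix FOXP2 + CHIR. The median of the 47 replication genes was -0.22 to -0.08, -0.42 to -0.36 and -0.29 to -0.23 in those groups. Without CHIR it was -0.16 to -0.08 with WT FOXP2 and -0.12 to -0.08 with dhelix FOXP2, and the mitotic median was -0.12 to -0.06 and -0.05 to -0.01. The replication median was lower than every mock library in all 25 others.

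**Figure D4:**
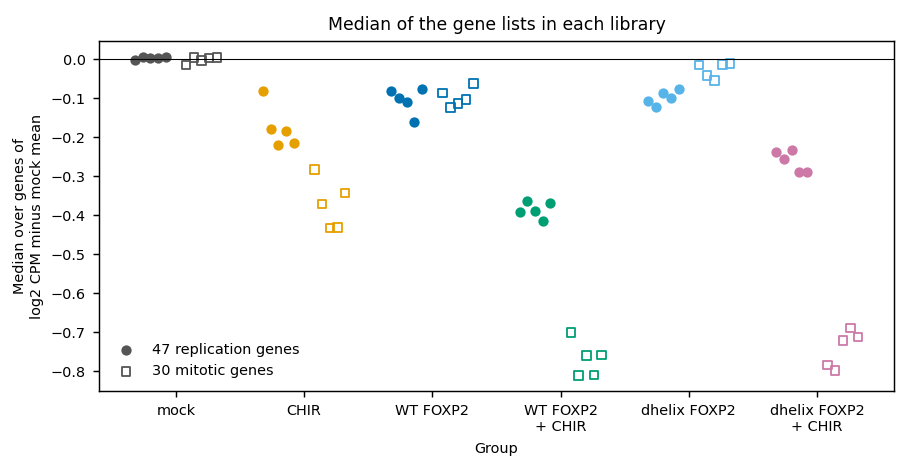
Median over the 47 replication genes (filled circles) and over 30 mitotic genes (open squares) of log2 CPM minus the gene's mean in mock, 1 point per library. Both lists lie lowest in the 2 groups with a plasmid and CHIR, and CHIR replicate 1, at -0.08, is the highest filled point of its group and within the range of the plasmid groups without CHIR.

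With either FOXP2 plasmid and no CHIR, CDC6, ORC6, TIPIN and RPA2 rose, and LIG1, MCM6 and 4 of 5 deoxynucleotide genes fell. WT FOXP2 against mock gave 16 genes up and 24 down (all genes: 39.9% rose, 41.6% fell), with a median of -0.11 against -0.02 over all genes. For dhelix FOXP2 against mock it was 17 up and 24 down (all genes: 39.6% rose, 40.9% fell), with a median of -0.14. The shares of the 47 that rose or fell were near those of all genes. Both comparisons use the same mock libraries, and an effect of FOXP2 cannot be told apart from one of transfected plasmid DNA. With upper-quartile scaling the median of all genes for WT FOXP2 against mock moved by -0.12, to -0.14, so small rises are relative to the scaling: MCM7 rose (0.11 ± 0.03) with TMM scaling and lay at -0.01 there.

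LIG1 fell most with both plasmids. It was at 84.9, 85.3, 84.7, 78.6 and 81.1 CPM with WT FOXP2 (-1.06 ± 0.05, edgeR adjusted p = 2.8e-21) and at 95.7, 90.3, 94.8, 96.3 and 94.4 CPM with dhelix FOXP2 (-0.87 ± 0.05, edgeR adjusted p = 7e-19). Each was below all mock libraries, which lay at 169 to 179 CPM. LIG1 fell while FEN1, which prepares the nick for it, rose slightly (0.15 ± 0.03 and 0.15 ± 0.03). With upper-quartile scaling FEN1 was at 0.04 with WT FOXP2 and did not pass (adjusted p = 0.25), and at 0.07 with dhelix FOXP2. TIPIN was at 52.3, 52.1, 49.7, 50.3 and 51.3 CPM with WT FOXP2 (0.98 ± 0.06, edgeR adjusted p = 1.1e-16) and 47.2, 44.6, 44.3, 45.7 and 44.9 CPM with dhelix FOXP2 (0.81 ± 0.06). No library of either group overlapped mock. RPA2 was at 59.9, 53.6, 52.4, 52.8 and 56.5 CPM in mock, 98.3, 97.4, 94.99, 91.8 and 91.01 CPM with WT FOXP2 (0.78 ± 0.04) and 87.5, 92.2, 91.4, 90.5 and 93.2 CPM with dhelix FOXP2 (0.73 ± 0.04). The 2 other subunits of the RPA trimer fell, RPA1 (-0.36 ± 0.03 and -0.35 ± 0.03) and RPA3 (-0.35 ± 0.06 and -0.14 ± 0.06). The RPA3 call with dhelix FOXP2 was lost in 9 of 10 fits that left out 1 library (-0.14 to -0.10), all but that without mock replicate 1, and with DESeq2 (-0.12).

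Licensing genes rose in 3 of 4 cases with each plasmid (all genes: 39.9% rose with WT FOXP2, 39.6% with dhelix FOXP2). CDC6 was at 163, 168, 165, 159 and 175 CPM with WT FOXP2 (0.50 ± 0.04) and 162, 166, 165, 159 and 163 CPM with dhelix FOXP2 (0.47 ± 0.04), all above the 115 to 120.3 CPM of mock. ORC6 changed by 0.61 ± 0.04 and 0.52 ± 0.04. ORC1 was at 55.1, 58.9, 54.4, 53.7 and 56.97 CPM with WT FOXP2 (0.19 ± 0.04) and 52.4, 50.96, 54.97, 51.98 and 51.4 CPM with dhelix FOXP2 (0.10 ± 0.04). The ORC1 calls were less stable: with upper-quartile scaling it did not pass with either plasmid (0.07 and 0.01), and with dhelix FOXP2 the call was lost without mock replicate 1 (0.08) or 2 (0.09). CDT1 did not pass with either, at 61.3, 60.999, 67.3, 64.5 and 62.9 CPM and 61.6, 62.2, 60.98, 63.1 and 60.3 CPM. Of the ring, MCM6 (-0.67 ± 0.04 and -0.65 ± 0.04), MCM2, MCM3 and MCM4 fell with both. MCM2 was at 202, 199, 199.9, 193 and 193 CPM with WT FOXP2 (-0.25 ± 0.04) and 198, 188, 199.9, 193 and 193 CPM with dhelix FOXP2 (-0.27 ± 0.04). MCM5 did not pass in either (0.06 ± 0.05 and 0.02 ± 0.05), and MCM7 rose in both. Thus 4 of the 6 subunits fell (all genes: 41.6% fell with WT FOXP2, 40.9% with dhelix FOXP2).

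Of the genes that join the ring, CDC45 rose, at 105, 109, 106, 103 and 103 CPM with WT FOXP2 (0.19 ± 0.03; 0.08 with upper-quartile scaling) and 107, 110.1, 109, 109 and 108 CPM with dhelix FOXP2 (0.24 ± 0.03; 0.16). GINS3 (0.37 ± 0.05 and 0.38 ± 0.04) and MCM10 (0.39 ± 0.04 and 0.27 ± 0.04) rose too. GINS2 fell, at 49.8, 46.2, 48.3, 43.97 and 45.5 CPM with WT FOXP2 (-0.62 ± 0.04) and 53.4, 51.8, 51.3, 51.9 and 50.9 CPM with dhelix FOXP2 (-0.46 ± 0.04). GINS2 and GINS3, subunits of the same complex, therefore went in opposite directions. The mean level of GINS4 was 96.1 CPM in mock, 87.2 with WT FOXP2 and 89.8 with dhelix FOXP2. That of GINS1 was 58.2, 54.0 and 55.8 CPM in these groups, so GINS3 was the only subunit with a higher mean. WDHD1 was at 139.6, 148, 144, 139 and 139 CPM in mock, 115, 114, 111, 108 and 121 CPM with WT FOXP2 (-0.32 ± 0.05) and 109, 108, 105, 108 and 111 CPM with dhelix FOXP2 (-0.39 ± 0.05). POLA1 was at 56.004, 55.5, 55.1, 52.5 and 56.7 CPM with WT FOXP2 (-0.36 ± 0.05) and 53.1, 54.5, 52.5, 52.8 and 52.5 CPM with dhelix FOXP2 (-0.42 ± 0.05). Within polymerase ε, the catalytic POLE fell (-0.48 ± 0.04 and -0.53 ± 0.04) and POLE2 rose (0.43 ± 0.05 and 0.47 ± 0.05). RFC3 rose (0.55 ± 0.06 and 0.61 ± 0.05), and RFC4 fell (-0.25 ± 0.05 and -0.15 ± 0.05), the latter not called with dhelix FOXP2 without mock replicate 3 (-0.10). RFC5 was at 63.7, 65.6, 65.9, 65.4 and 67.9 CPM with WT FOXP2, where it did not pass (0.06 ± 0.04), and 69.5, 69.8, 65.1, 68.7 and 69.5 CPM with dhelix FOXP2 (0.12 ± 0.04; 0.03 and not called with upper-quartile scaling). PCNA was at 156, 154, 150.2, 139 and 152 CPM with WT FOXP2 (-0.52 ± 0.04) and 194, 175, 178, 187 and 181 CPM with dhelix FOXP2 (-0.23 ± 0.04). In deoxynucleotide supply TYMS, TK1, DUT and RRM2 fell with both plasmids, with TK1 at -0.64 ± 0.07 and -0.45 ± 0.07, and RRM1 did not pass (0.03 ± 0.04 and 0.01 ± 0.04). CLSPN was at 97.5, 98.5, 90.6, 91.9 and 98.3 CPM with WT FOXP2, where it did not pass (-0.08 ± 0.05), and 87.2, 90.1, 85.01, 84.4 and 87.95 CPM with dhelix FOXP2 (-0.21 ± 0.05).

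In CHIR-treated cells 8 of the 9 polymerase and primase genes and 5 of the 6 clamp and clamp loader genes fell with each plasmid. Against CHIR alone, WT FOXP2 + CHIR gave 14 genes up and 27 down (all genes: 38.2% rose, 40.2% fell), with a median of -0.25 against -0.03 over all genes. For dhelix FOXP2 + CHIR it was 17 up and 24 down (all genes: 37.0% rose, 38.9% fell), with a median of -0.11. The CHIR libraries are common to both. PRIM2 was the polymerase or primase gene that did not fall: it rose with dhelix FOXP2 + CHIR (0.22 ± 0.05, edgeR adjusted p = 0.00032) and did not pass with WT FOXP2 + CHIR (0.10 ± 0.05), where it was called higher without CHIR replicate 1 (0.22, adjusted p = 3.9e-07). PRIM1, the other primase subunit, fell most with WT FOXP2 (-0.91 ± 0.06, edgeR adjusted p = 1.3e-16; -0.69 ± 0.06 with dhelix FOXP2). WDHD1 was at 188, 146, 142, 154 and 143 CPM with CHIR alone, 88.7, 87.5, 86.1, 91.2 and 86.2 CPM with WT FOXP2 + CHIR (-0.81 ± 0.05) and 92.9, 90.8, 94.5, 97.4 and 95.7 CPM with dhelix FOXP2 + CHIR (-0.72 ± 0.05). POLA1 was at 41.5, 42.9, 42.2, 43.02 and 43.9 CPM with WT FOXP2 + CHIR (-0.40 ± 0.05) and 48.2, 48.8, 48.7, 49.5 and 44.96 CPM with dhelix FOXP2 + CHIR (-0.23 ± 0.05; -0.14 without CHIR replicate 1). All were below the CHIR libraries. LIG1 was at 70.7, 75.9, 72.96, 66.7 and 72.7 CPM (-0.83 ± 0.05) and 95.01, 83.9, 89.7, 82.3 and 84.3 CPM (-0.56 ± 0.05) in these groups. RFC5 was at 70.4, 70.8, 69.9, 68.4 and 70.5 CPM (-0.49 ± 0.04) and 78.1, 74.2, 74.1, 76.3 and 74.4 CPM (-0.38 ± 0.04). PCNA was at 126, 125, 122, 123 and 125 CPM (-0.53 ± 0.04) and 155, 151, 143, 152 and 162 CPM (-0.23 ± 0.04). RFC2 did not pass in either group (-0.05 ± 0.03 and 0.03 ± 0.03). RFC3 with WT FOXP2 (-0.14 ± 0.05) was at -0.03 without CHIR replicate 1 (adjusted p = 0.55), and its call was also lost without CHIR replicate 4 (-0.12) and without WT FOXP2 + CHIR replicate 2 (-0.12), 3 (-0.09), 4 (-0.12) or 5 (-0.11), and with DESeq2 (-0.11).

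CDC6, GINS3, TIPIN and RPA2 rose with both plasmids over CHIR alone as well. GINS3 was at 30.7, 30.1, 31.01, 30.2 and 28.9 CPM in mock and 34.8, 30.2, 30.1, 34.5 and 31.5 CPM with CHIR alone and rose by 0.61 ± 0.04 with WT FOXP2 and 0.62 ± 0.05 with dhelix FOXP2. CDC6 was at 157, 154, 157, 161 and 158 CPM with WT FOXP2 + CHIR (0.44 ± 0.04) and 181, 177, 172, 175 and 170.4 CPM with dhelix FOXP2 + CHIR (0.60 ± 0.04), above all CHIR libraries. TIPIN was at 44.2, 44.04, 43.02, 49.6 and 45.3 CPM (0.57 ± 0.06) and 39.9, 44.9, 44.6, 42.2 and 42.2 CPM (0.49 ± 0.06). The lowest library with dhelix FOXP2 + CHIR lay just above CHIR replicate 1. CDC45 was at 70.2, 73.8, 73.2, 74.9 and 74.6 CPM (0.12 ± 0.03) and 88.6, 85.2, 81.5, 82.04 and 89.2 CPM (0.34 ± 0.03). MCM5 rose by 0.40 ± 0.06 and 0.56 ± 0.06. GINS4 rose with dhelix FOXP2 + CHIR (0.18 ± 0.03) and did not pass with WT FOXP2 + CHIR (0.04 ± 0.03), where it was called higher without CHIR replicate 1 (0.08, adjusted p = 0.019). MCM2 was at 134, 151, 144, 141 and 141 CPM and 145, 150.5, 146, 145 and 150.0 CPM and did not pass in either (-0.03 ± 0.04 and 0.02 ± 0.04). RRM2 rose from its CHIR level by 0.25 ± 0.04 and 0.26 ± 0.04, though it had fallen with both plasmids against mock. CLSPN, at 65.6, 60.9, 61.2, 65.6 and 62.96 CPM and 70.003, 66.6, 66.6, 67.7 and 71.1 CPM, did not pass (-0.06 ± 0.05 and 0.06 ± 0.05), and without CHIR replicate 1 it was 0.16 higher with dhelix FOXP2 + CHIR (adjusted p = 0.00011). CDT1, at 55.8, 68.7, 61.9, 66.3 and 67.3 CPM and 70.3, 71.3, 66.7, 64.1 and 71.9 CPM, did not pass in either, but without CHIR replicate 1 it was at -0.19 with WT FOXP2 + CHIR (adjusted p = 0.00048).

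**Figure D5:**
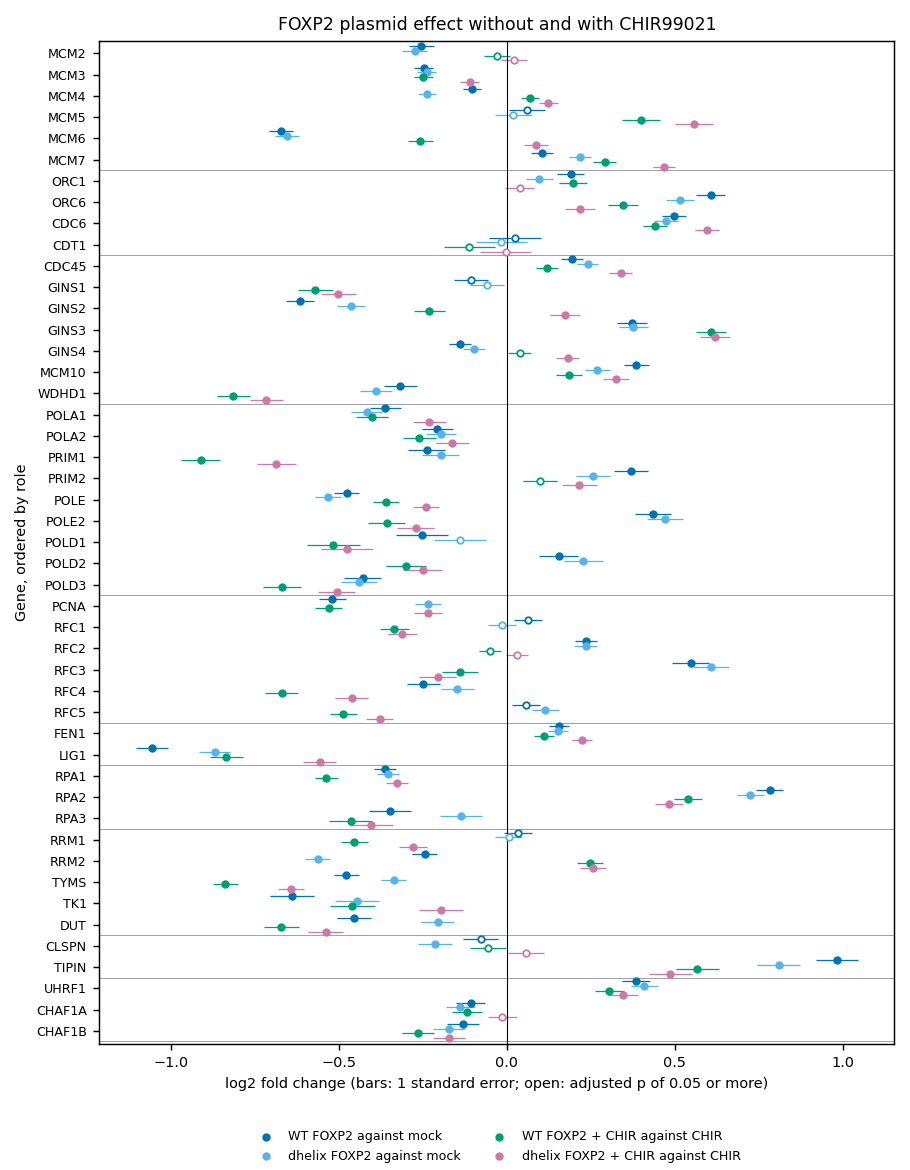
Log2 fold change with either FOXP2 plasmid for each of the 47 genes, against mock and, in CHIR-treated cells, against CHIR alone; bars are 1 standard error and open points did not pass. LIG1 lies left of 0 and TIPIN and RPA2 right of 0 in all 4 comparisons, and RRM2 and MCM5 lie further right against CHIR than against mock.

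The deletion of residues 264 to 272 went with small differences. Without CHIR, dhelix FOXP2 against WT FOXP2 gave 8 genes up and 5 down of 47 (all genes: 16.9% rose, 18.7% fell). The share that rose was near that of all genes, and the share that fell was below it. FOXP2 RNA was lower on average with dhelix FOXP2 than with WT FOXP2 here too, and its part in the differences was not tested. RRM2 differed most: its dhelix libraries, at 271 to 285 CPM, lay below all WT libraries, at 340.1 to 349 CPM (-0.32 ± 0.04, edgeR adjusted p = 1.4e-08). PCNA was higher with dhelix FOXP2, at 175 to 194 CPM against 139 to 156 CPM (0.29 ± 0.04, edgeR adjusted p = 6.8e-07). DUT (0.25 ± 0.05), RPA3 (0.21 ± 0.06) and TK1 (0.20 ± 0.07) were also higher. TIPIN (-0.17 ± 0.06) and CLSPN (-0.13 ± 0.05), partners in the fork checkpoint, were lower, but TIPIN lost its call in 7 of 10 fits that left out 1 library (-0.17 to -0.15) and CLSPN in 8 of 10 (-0.14 to -0.11). The genes called lower numbered 2 to 7 in those fits, with 2 without WT FOXP2 replicate 1 or 5 or dhelix FOXP2 replicate 2, 3 or 4, and 3 without WT FOXP2 replicate 2 or dhelix FOXP2 replicate 5. Upper-quartile scaling gave 9 up and 2 down.

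With CHIR the difference lay mostly in 1 direction: 22 genes were higher and 2 lower in dhelix FOXP2 + CHIR than in WT FOXP2 + CHIR (all genes: 16.6% rose, 13.9% fell). The median was 0.11 against 0.01 over all genes, and 42 of 47 fold changes were above 0. FOXP2 RNA was lower in the dhelix libraries on average, and its part in this was not tested. GINS2 was at 32.9, 33.7, 35.004, 37.4 and 37.1 CPM with WT FOXP2 + CHIR and 47.2, 47.8, 45.9, 44.2 and 47.7 CPM with dhelix FOXP2 + CHIR (0.40 ± 0.05, edgeR adjusted p = 7.7e-09). Every dhelix library was higher. MCM6 was at 74.2, 72.96, 71.2, 73.3 and 75.1 CPM and 93.7, 94.9, 93.3, 94.8 and 89.1 CPM (0.34 ± 0.04), also without overlap. PCNA (0.30 ± 0.04) and LIG1 (0.28 ± 0.05) were next. The 2 genes that were lower both encode ORC subunits: ORC1 was at 49.03, 47.4, 49.03, 45.3 and 46.5 CPM and 46.4, 43.2, 41.6, 41.2 and 40.004 CPM (-0.16 ± 0.04), with overlap, and ORC6 differed by -0.13 ± 0.04, a call lost without dhelix FOXP2 + CHIR replicate 3 (-0.11).

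The interaction of each plasmid with CHIR, the change in the CHIR effect that goes with the plasmid, was tested directly. For WT FOXP2 it was positive for 10 genes and negative for 21 (all genes: 30.7% and 34.9%), and for dhelix FOXP2 positive for 16 and negative for 18 (all genes: 31.2% and 33.7%). Both share the mock and CHIR libraries, and both subtract the effect of CHIR alone. FOXP2 RNA was higher in plasmid cells with CHIR than without, and its part in the interactions was not tested. By construction, a large fall with CHIR alone favours a positive value and a large rise a negative one. The positive values were led by genes that fell most with CHIR alone: RRM2 (0.49 ± 0.05 with WT FOXP2 and 0.82 ± 0.05 with dhelix FOXP2), MCM6 (0.42 ± 0.05 and 0.74 ± 0.05), GINS2 (0.39 ± 0.06 and 0.64 ± 0.06) and MCM5 (0.34 ± 0.08 and 0.54 ± 0.08). For these the fall with CHIR was smaller in plasmid cells, which started lower for RRM2, MCM6 and GINS2. The negative values were led by POLE2 (-0.79 ± 0.08 and -0.74 ± 0.08), RFC3 (-0.69 ± 0.08 and -0.81 ± 0.08), PRIM1 (-0.67 ± 0.08 and -0.49 ± 0.08) and RFC5 (-0.54 ± 0.06 and -0.49 ± 0.06). Each of these genes was higher in CHIR replicate 1 than in any other CHIR library, which makes the value more negative. Without that library the effect of CHIR alone was 0.40 for RFC3 (0.51 with it), 0.55 for RFC5 (0.63) and -0.28 for PRIM1 (-0.16). POLE2 was at 48.8, 45.3, 46.7, 48.03 and 46.03 CPM in mock and 62.4, 50.4, 49.7, 47.1 and 53.8 CPM with CHIR, at 65.7, 60.8, 61.5, 63.8 and 65.6 CPM with WT FOXP2 and 44.1, 40.7, 41.4, 40.3 and 39.1 CPM with CHIR added. It rose with CHIR alone (0.17 ± 0.05; 0.06 and not called without CHIR replicate 1) and fell with CHIR in WT FOXP2 cells. With upper-quartile scaling, which moved the median of all genes by 0.14 and 0.12, the counts were 15 positive and 13 negative for WT FOXP2 and 22 and 14 for dhelix FOXP2, so the balance of signs depends on the scaling. Without CHIR replicate 1 the WT FOXP2 interaction was also called for CLSPN (0.13) and POLE (0.10) and, below 0, for CDT1 (-0.23).

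The interaction of the deletion with CHIR, the difference between the CHIR effects in dhelix and WT cells, was positive for 14 genes and negative for 0 (all genes: 8.93% and 5.29%). At an unadjusted p under 0.05 it was 21 and 0, and with DESeq2 15 and 0. Without the filter on low counts it was positive for 2, RRM2 and MCM6, and negative for 1, RPA3 (-0.21, adjusted p = 0.045). Without the 3 libraries that stand apart it was 19 and 2, as in a fit of the 4 groups compared alone, with RPA3 and RFC3 negative in both. RRM2 (0.33 ± 0.05, edgeR adjusted p = 4e-05), MCM6 (0.33 ± 0.05, edgeR adjusted p = 2.9e-05), MCM10 (0.26 ± 0.05) and GINS2 (0.25 ± 0.06) led. For RRM2 the WT cells fell from 344 to 179.9 CPM on average and the dhelix cells from 276 to 181, and the treated groups did not pass the test of their difference (0.01 ± 0.04). For MCM6 the untreated groups, at 117 and 119 CPM on average, did not pass (0.02 ± 0.04), and the treated groups were at 73.4 and 93.1 CPM. FOXP2 RNA differed among these groups as well, and its part was not tested. The number of calls was not stable. With 1 library left out it ranged from 6, without WT FOXP2 replicate 2, to 14, and was 9 or fewer without WT FOXP2 replicate 1, 2, 3 or 5, WT FOXP2 + CHIR replicate 2, dhelix FOXP2 replicate 2, 3, 4 or 5, or dhelix FOXP2 + CHIR replicate 2.

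Other genes of the pathway, a list of 60 that excludes the 47, were counted in the same fit. With CHIR alone 20 rose and 23 fell (all genes: 38.8% and 35.3%); E2F2, an activator of S phase genes (-2.34 ± 0.07), the polymerase δ subunit POLD4 (-1.75 ± 0.14) and the histone chaperone ASF1B (-1.32 ± 0.06) fell most, and the repressor E2F7 rose most (1.38 ± 0.05). With WT FOXP2 22 rose and 28 fell (all genes: 39.9% and 41.6%); CDC25A, a phosphatase that activates CDK2, rose by 1.36 ± 0.04, the dCTP pyrophosphatase DCTPP1 by 1.11 ± 0.06 and ORC5 by 1.01 ± 0.05. TIMELESS, the partner of TIPIN in the fork protection complex, fell with WT FOXP2 (-0.93 ± 0.04) and with dhelix FOXP2 (-0.83 ± 0.03), where TIPIN rose. With dhelix FOXP2 20 rose and 25 fell (all genes: 39.6% and 40.9%), and between the plasmid groups 14 were higher with dhelix FOXP2 and 12 lower (all genes: 16.9% and 18.7%). Against CHIR alone 11 rose and 37 fell with WT FOXP2 (all genes: 38.2% and 40.2%), and 15 rose and 34 fell with dhelix FOXP2 (all genes: 37.0% and 38.9%); CCNE1, cyclin E1, rose by 1.40 ± 0.04 and 1.27 ± 0.04, and the nuclease-helicase DNA2 fell (-1.22 ± 0.06 and -0.97 ± 0.06). With CHIR added 5 rose and 42 fell in WT FOXP2 cells (all genes: 34.8% and 30.2%) and 6 rose and 36 fell in dhelix FOXP2 cells (all genes: 34.1% and 29.1%), among them CCNA2, cyclin A2 (-1.02 ± 0.04 and -1.07 ± 0.04). SAMHD1, which breaks down deoxynucleotides, rose by 0.43 ± 0.04 and 0.67 ± 0.04 there, and by 0.65 ± 0.04 with CHIR alone. Between dhelix FOXP2 + CHIR and WT FOXP2 + CHIR 12 were higher and 5 lower (all genes: 16.6% and 13.9%), SAMHD1 (0.48 ± 0.04) and E2F2 (0.46 ± 0.08) first.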

How the data were processed

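Poly(A) RNA from 30 U2OS cultures was sequenced in paired-end runs from a strand-marking kit, per the labels' protocols. The authors deposited raw read counts per gene. STAR 2.6.1a, featureCounts of the Subread package, DESeq2 and the build hg19 are named in the submitters' processing notes; the annotation release and the strand setting were not given in these sources. Groups came from the labels, with 5 libraries each. Counts were fitted in R 4.3.3 with edgeR 4.0.16 (limma 3.58.1) in 1 quasi-likelihood model of the 6 groups, with TMM scaling and edgeR's expression filter, which left 18485 genes. The 9 comparisons of groups and 3 interactions were each adjusted over all genes tested by the Benjamini-Hochberg method, with a threshold of 0.05. CPM use the scaled library sizes. Total counts of 15755842 to 29466652 per library limit the precision of low genes.

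The fit was tested on simulated data with known changes, for WT FOXP2 against mock alone, with 50 genes changed at each size. It recovered 54% at 1.2-fold, 88% at 1.5-fold and 98% at 2-fold, and called 7 of 16479 unchanged genes. Far fewer genes were changed there than were called in the real data, and no interaction was simulated. The scaling was thus not tested with many genes changed. The alternatives were DESeq2 1.42.0, other scalings, filters and fits, and each library left out. Values are given in every library for 10 genes set by the naming rule and for the genes at either extreme of each comparison, and up to 4 genes per direction and comparison are named from each list; other members are named under their role. POLE2, RPA2, MCM6 in the treated groups, the genes named for a call that changed under an alternative and the paired values of a gene across comparisons were chosen after their values were seen. The 47 genes and the other lists were chosen with earlier results of these data known. RefSeq windows of GRCh38.p14 were used for sequence alone, since the counts use another build, and exon lengths came from GENCODE annotation of another build.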

Additional observations from a re-analysis of the deposited data

Results flagged for a closer look

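In 10 of 108 groups of 5 libraries examined, over 18 genes, 1 library lay apart from the other 4 by more than Dixon's critical gap, which chance exceeds in about 1 group in 20. CHIR replicate 1 accounted for 4 of them: PCNA at 204 CPM (169 to 179 in the others), POLA1 at 67.7 CPM (51.8 to 55.0), TYMS at 595 CPM (502 to 521) and WDHD1 at 188 CPM (142 to 154). PCNA in mock replicate 1 was at 209.6 CPM (216 to 218), and TYMS in WT FOXP2 replicate 1 at 493 CPM (443 to 457). POLA1 in dhelix FOXP2 + CHIR replicate 5 was at 45.0 CPM (48.2 to 49.5), and RFC5 in dhelix FOXP2 replicate 3 at 65.1 CPM (68.7 to 69.8). PRIM1 in WT FOXP2 + CHIR replicate 4 was at 39.4 CPM (33.9 to 35.1), and GINS3 in WT FOXP2 + CHIR replicate 5 at 46.6 CPM (49.3 to 50.4).

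The CHIR effect differed with the plasmid, by edgeR's test of the interaction. With WT FOXP2 it was higher on the log2 scale by 0.49 for RRM2, 0.42 for MCM6, 0.39 for GINS2 and 0.34 for MCM5, and the interaction was -0.79 for POLE2, -0.69 for RFC3, -0.67 for PRIM1 and -0.54 for RFC5. With dhelix FOXP2 it was 0.82 for RRM2, 0.74 for MCM6, 0.64 for GINS2 and 0.54 for MCM5, and -0.81 for RFC3, -0.74 for POLE2, -0.49 for RFC5 and -0.49 for PRIM1. Between the dhelix and WT plasmids it differed by 0.33 for RRM2, 0.33 for MCM6, 0.26 for MCM10 and 0.25 for GINS2. CHIR replicate 1 enters the first 2 of these interactions and not that of the deletion. FOXP2 RNA was higher with CHIR in both kinds of plasmid cell, and its part in these interactions was not tested.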

How the results depend on the processing

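Of 8770 alternative values for 399 called results of single genes, 8163 kept their direction and call, 606 lost the call and 1 reversed: MCM7 with WT FOXP2 against mock, at -0.012 with upper-quartile scaling (adjusted p = 0.75). Tested against a 1.2-fold change (glmTreat), the genes called numbered 20 for CHIR, 22 for WT FOXP2 and 19 for dhelix FOXP2 against mock, 0 for dhelix FOXP2 against WT FOXP2, 25 for WT FOXP2 + CHIR and 21 for dhelix FOXP2 + CHIR against CHIR, 1 between those 2 groups, 22 and 15 for CHIR in WT and dhelix cells, and 15, 11 and 0 for the interactions of WT FOXP2, dhelix FOXP2 and the deletion with CHIR. Most changes of the deletion were thus under 1.2-fold or not shown to exceed it. Without the filter on low counts the interaction of the deletion gave 3 calls, 2 positive and 1 negative, and with 1 library left out 6 to 14. In that order of comparisons, the others gave 37 to 43, 38 to 41, 39 to 40, 10 to 15, 40 to 43, 39 to 42, 21 to 25, 38 to 40, 37 to 40, 30 to 34 and 33 to 37 calls. With the replicate number as a block the counts were 40, 40, 41, 13, 41, 41, 25, 39, 43, 31, 34 and 14. Of same-numbered pairs from different groups 8 of 75 correlated above 0.1 (median 0.011), against 14 of 300 differently numbered pairs (median -0.00015). Whether the numbers mark a shared batch was not tested. Counting depth limits the lowest genes.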
